A study of Mus musculus with 20 samples.

Results

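The liver after the first hour of resuscitation was compared with the liver at the end of hemorrhagic shock, over 8 of the 20 Affymetrix Mouse430_2 arrays of a mouse time course. The arrays were chosen by their labels alone and every gene was measured. Shock was represented by 4 arrays from mice held for 1.5 h in hemorrhagic shock with severe trauma, and resuscitation by 4 arrays from mice given the same injury and then 1 h of resuscitation. The other 12 arrays were 5 of mice not manipulated (control), 3 of minor trauma and 4 of the same shock and trauma with 4.5 h of resuscitation. All were male C57BL/6 mice of 8 to 12 weeks, and RNA was taken from whole liver. Per the design text the mice were anesthetized and operated on. The labels do not say what the severe trauma or the resuscitation consisted of. Both groups compared carry the same injury, and the added hour of elapsed time and the resuscitation itself cannot be told apart.

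In hemorrhagic shock the liver receives too little blood and oxygen, and resuscitation brings flow and oxygen back. The return of flow is known to activate NF-kB, a family of transcription factors held in the cytoplasm by inhibitors of the IkB family. Among the genes NF-kB switches on are adhesion molecules that catch leukocytes on the vessel wall, chemokines that draw them in, and its own inhibitors, which close the loop. Flow along the vessel wall, oxygen supply, insulin and stress hormones each have their own early genes in liver, such as the Kruppel-like factors Klf2 and Klf4 in endothelium and Ddit4 under low oxygen.

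Levels are given below as the log2 of the deposited intensity plus 6 after quantile normalization, on which the median of every array is 4.60, and a difference of 1 on this scale is a change of 2-fold. Such fold changes understate the change of dim genes. Each ± is the standard error of a difference or, where marked SD, the standard deviation over arrays. Adjusted p values are from limma with Benjamini-Hochberg adjustment over all 12832 genes tested. The 20 arrays had deposited medians of 14.05 to 29.1, and genes correlated at 0.958 to 0.979 between any pair of the 8 arrays. None of the 16 hepatocyte markers lay at or below the array median on all arrays of a group. Albumin (Alb) averaged 13.20 in shock and 13.21 at 1 h, and the summed marker signal was 112965 to 116326 in shock and 110117 to 115662 at 1 h. The log2 ratio of 3′ over 5′ probe set signal, which rises as RNA breaks, averaged for Gapdh -0.30 ± 0.09 (SD, n = 4) in shock and -0.37 ± 0.12 at 1 h (two-sided exact permutation p = 0.371). That of beta-actin averaged 0.84 ± 0.06 and 0.90 ± 0.10 (exact permutation p = 0.4), and both p were 0.4 after adjustment over the pair, where 0.0286 is the smallest this design allows.

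Of the 12832 genes, 160 (1.25%) passed an adjusted p of 0.05, and 1360 had an unadjusted p under 0.05. The level was higher after 1 h of resuscitation for 112 of the 160 (0.873% of genes tested) and lower for 48 (0.374%). A change of at least 2-fold as well was found for 101 genes (0.787%), 78 higher and 23 lower. The median difference of all genes was -0.04, that of the genes called higher 1.18 and that of the genes called lower -0.98. The number called rested on single arrays: it was 82 without 1 h array 3, 84 without 1 h array 2, 84 without shock array 4 and 97 without shock array 2, and lay between 119 and 182 when any other of the 8 arrays was left out. The arrays also fell into a pair of sets by the spike-in control dap, with 2 arrays per group in each. With the set as a block 151 genes were called. Within the spiked arrays 55 were called, and within the unspiked arrays 2, Hcar2 and Pde4b, with 744 genes at an unadjusted p under 0.05 there.

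**Figure D1:**
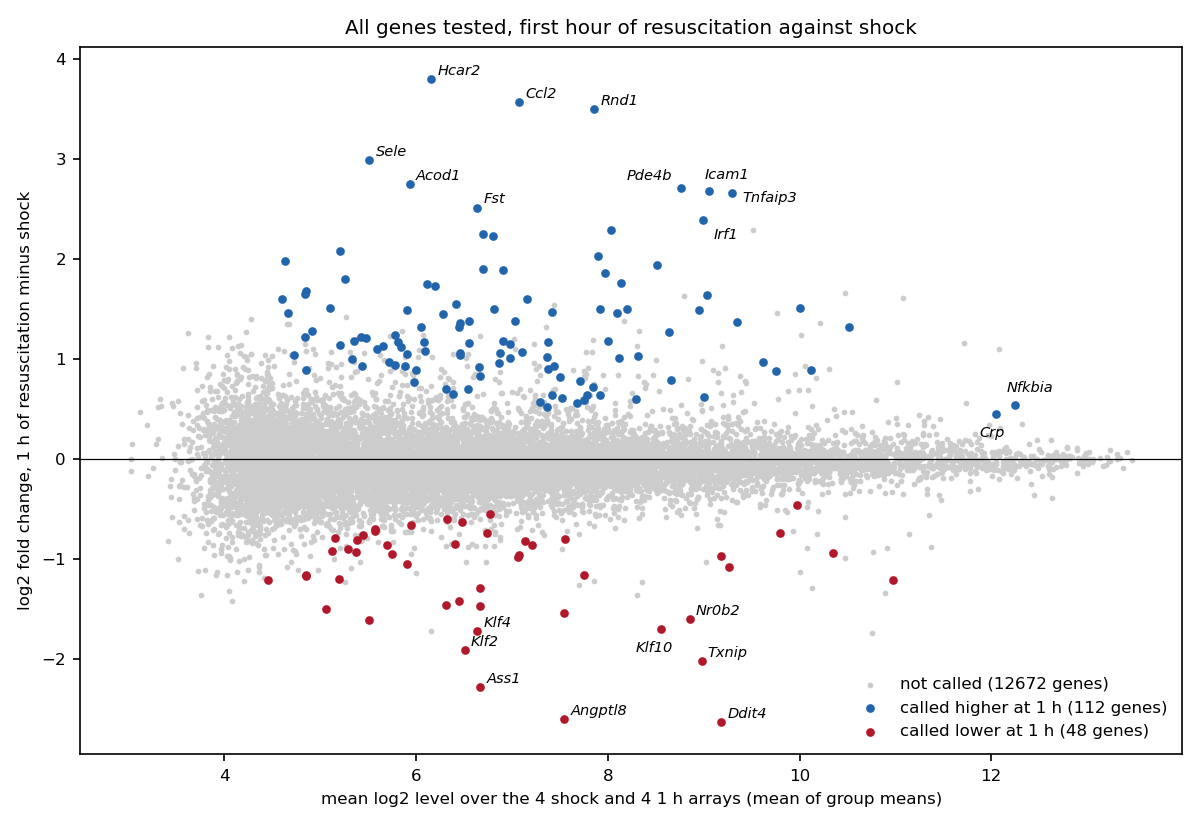
Each point is 1 of the 12832 genes tested, with its mean log2 level over the shock and 1 h groups on the x axis and its log2 fold change (1 h of resuscitation minus shock) on the y axis. The 112 genes called higher (blue) reach 3.80 for Hcar2, and the 48 called lower (red) reach -2.63 for Ddit4, while the grey points are the 12672 genes not called.

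The genes that rose most in the first hour were led by a metabolite receptor, a monocyte chemokine, a regulator of cell shape and adhesion molecules. Hcar2, the receptor for nicotinic acid and the ketone body beta-hydroxybutyrate, found on neutrophils and macrophages, read 4.59, 4.50, 5.09 and 2.85 on shock arrays 1 to 4 and 7.59, 8.17, 8.54 and 7.93 on 1 h arrays 1 to 4. Shock array 4 was the lowest of the 8 and the groups lay far apart. The difference was 3.80 ± 0.41 (13.9-fold, adjusted p = 1.57e-05), the largest of any gene called. Ccl2, the chemokine that draws monocytes out of the blood, read 5.52, 6.10, 5.96 and 3.60 in shock and 8.70, 9.53, 9.19 and 8.03 at 1 h. Shock array 4 was again lowest, and the groups did not overlap. Ccl2 rose by 3.57 ± 0.45 (11.8-fold, adjusted p = 0.000107). In whole liver RNA, more cells of a type and more RNA per cell cannot be told apart. Rnd1, a protein that loosens actin fibres and cell contacts, read 6.82, 6.0, 5.88 and 5.72 in shock and 8.63, 9.97, 10.53 and 9.30 at 1 h, a rise of 3.50 ± 0.35 (11.3-fold, adjusted p = 6.64e-06), with 1 h array 1 the lowest of its group.

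Among the 11 leukocyte adhesion genes tested, 3 were called higher and none lower (0.873% and 0.374% of all genes). All 3 are known from the endothelial side of the contact, Selp from platelets as well. Which cells of the whole liver held these RNAs was not measured. Sele, which encodes E-selectin, the endothelial lectin that lets leukocytes begin to roll, read 3.34, 4.16, 4.31 and 4.25 in shock and 7.01, 7.28, 7.40 and 6.34 at 1 h. All 4 shock arrays lay below the median of their array and all 4 arrays at 1 h above it. Sele therefore rose at least 5.28-fold, and the fitted difference was 2.99 ± 0.31 (adjusted p = 9.97e-06). Icam1, the ligand of leukocyte integrins that allows firm arrest, read 8.02, 7.96, 8.21 and 6.65 in shock and 10.09, 10.82, 10.71 and 9.94 at 1 h. The lowest array was shock 4 and no shock array reached the 1 h group. Icam1 rose by 2.68 ± 0.30 (6.41-fold, adjusted p = 3.01e-05). Selp, the P-selectin of platelets and endothelium, rose by 1.38 ± 0.24 (5.74 to 5.99 in shock and 6.47 to 8.25 at 1 h, adjusted p = 0.00358). The other probe sets of Selp stood between 0.67 (limma adjusted p over probe sets 0.417) and 2.35 (0.000135). The list's median was 0.08. Its other members include Vcam1, a further endothelial ligand, at a difference of 0.59 (adjusted p = 0.61), and the leukocyte integrin genes Itgb2 at -0.09 (adjusted p = 0.95) and Itgal at -0.31 (adjusted p = 0.47).

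RNAs of the NF-kB subunits Rela and Relb and of 6 inhibitors or partners of NF-kB rose. Of the 15 genes of this list tested, 8 were called higher and none lower, where 0.873% of all genes were called higher, and the median difference was 0.95. For 12 of the 15 every 1 h array lay above every shock array, which held for 3.73% of all genes, while 6.06% of all genes had every 1 h array below. Tnfaip3, which encodes the ubiquitin-editing inhibitor A20, read 7.86, 8.26, 8.79 and 6.94 in shock and 10.11, 10.90, 11.09 and 10.38 at 1 h. The groups did not overlap, with shock array 4 lowest. Tnfaip3 rose by 2.66 ± 0.36 (6.30-fold, adjusted p = 0.000235), and it had averaged 5.63 ± 0.75 (SD, n = 5) in control and 7.96 ± 0.78 (n = 4) in shock (adjusted p = 0.000188). Relb, the NF-kB subunit of the slower, non-canonical arm, read 4.08, 4.0, 4.74 and 3.85 in shock and 5.98, 6.26, 6.57 and 6.16 at 1 h, and rose by 2.08 ± 0.21 (4.22-fold, adjusted p = 6.64e-06). Its mean was 4.33 ± 0.27 (SD) in control and 4.17 ± 0.40 in shock (adjusted p = 0.788). Nfkbiz, a nuclear IkB protein, rose by 1.51 ± 0.30, Tnip1, which binds A20, by 1.48 ± 0.20, and Bcl3, another nuclear IkB protein, by 1.46 ± 0.27. The rises of Rela, the main activating subunit, and of the IkB genes Nfkbib and Nfkbia were 0.62 ± 0.11, 0.57 ± 0.13 and 0.54 ± 0.13 on the brightest probe set of each. Nfkbia was at a high level on all 8 arrays, 11.64 to 12.18 in shock and 12.35 to 12.62 at 1 h. Its 4 other probe sets stood at 1.14, 0.90, 0.81 and 0.78, of which the first 3 passed (limma adjusted p over probe sets 0.000934, 0.00790 and 0.00556) and the last did not (0.291). The other probe set of Nfkbib stood at 0.22 (adjusted p = 0.922). Adjusted p values of these 6 genes lay between 0.000163 for Tnip1 and 0.0343 for Nfkbia. The probe sets of Nfkb2, a further subunit, disagreed: the brighter one, which counts here, stood at 0.97 (adjusted p = 0.110) and was not called, and the other, near the array median, at 2.51 ± 0.24 (limma adjusted p over probe sets 3.53e-06). Also not called were Rel at 0.84 (adjusted p = 0.237) and the deubiquitinase Cyld at -0.12. The calls of Nfkbia and Nfkbib on these probe sets were each lost when 1 of at least 5 of the 8 arrays was left out (adjusted p up to 0.149), and that of Nfkbiz without 1 h array 2 (0.0511).

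The promoters of the genes that rose were searched for a motif of NF-kB type and 3 others, since several genes known as NF-kB targets moved together. Windows of RefSeq (GRCm38.p6) from 250 bases before to 50 after a gene's start were matched by symbol, for 87 of the 112 genes called higher, 37 of the 48 called lower and 10352 of the 12832 tested, and both strands were read. No motif holds the letters of another, but matches may share bases. The NF-kB type, GGGA and CC with any 4 bases between them, was found for 36.8% of the genes called higher, 32.4% of those called lower and 30.1% of all tested, and in 20.7% of all windows. The AP-1 type TGANTCA was found for 19.5%, 2.7% and 6.8% of the same genes and in 7.81% of all windows. The cAMP response element TGACGTCA was found for 3.45%, 2.7% and 3.27% (1.79% of windows), and the E-box CACGTG for 10.3%, 13.5% and 11.6% (7.15% of windows). Among genes also changed at least 2-fold, 59 called higher and 18 called lower had a window. The NF-kB type was found for 39.0% and 44.4% of these, and the AP-1 type for 20.3% and 0%. A match describes the letters of the window and is not a measured site. The pattern called NF-kB type leaves 4 bases free and is not the full NF-kB consensus. It can mark letters that the consensus excludes and leave letters that fit the consensus unmarked. In 8 of the genes called higher, a match of the NF-kB type and 1 of the AP-1 type lay in the same 250 bases before a start. Windows of 1 chromosome were left out of this count, and the share of all genes tested with both types was not computed. The 5 windows printed here belong to these 8 genes. They show the matches in capitals, the longer ones of NF-kB type and the shorter ones of AP-1 type. They are written along the gene's strand, 5′ to 3′, with matches of either strand. Sele lies at chr1:164047984-164048233 on the plus strand, Selp at chr1:164115014-164115263 (plus), Il1rn at chr2:24336610-24336859 (plus), Tnfaip3 at chr10:19015411-19015660 (minus) and Cxcl10 at chr5:92348890-92349139 (minus).
Sele: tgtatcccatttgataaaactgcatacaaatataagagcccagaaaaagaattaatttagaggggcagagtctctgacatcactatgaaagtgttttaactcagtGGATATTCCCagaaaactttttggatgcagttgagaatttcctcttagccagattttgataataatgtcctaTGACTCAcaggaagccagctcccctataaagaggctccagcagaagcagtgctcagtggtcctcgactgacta
Selp: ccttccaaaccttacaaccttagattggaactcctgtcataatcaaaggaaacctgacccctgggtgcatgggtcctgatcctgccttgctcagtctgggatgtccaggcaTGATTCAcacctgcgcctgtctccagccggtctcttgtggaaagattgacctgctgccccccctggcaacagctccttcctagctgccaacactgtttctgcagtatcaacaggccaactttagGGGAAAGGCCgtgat
Il1rn: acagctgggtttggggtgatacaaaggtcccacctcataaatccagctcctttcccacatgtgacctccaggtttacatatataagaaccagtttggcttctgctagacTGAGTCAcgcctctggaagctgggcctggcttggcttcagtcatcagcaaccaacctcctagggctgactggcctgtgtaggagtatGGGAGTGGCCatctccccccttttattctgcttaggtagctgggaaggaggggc
Tnfaip3: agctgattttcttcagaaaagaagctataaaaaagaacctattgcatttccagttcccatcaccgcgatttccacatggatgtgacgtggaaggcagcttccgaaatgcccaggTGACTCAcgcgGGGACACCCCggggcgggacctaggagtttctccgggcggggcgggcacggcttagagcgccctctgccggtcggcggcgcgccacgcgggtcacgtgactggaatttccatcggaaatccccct
Cxcl10: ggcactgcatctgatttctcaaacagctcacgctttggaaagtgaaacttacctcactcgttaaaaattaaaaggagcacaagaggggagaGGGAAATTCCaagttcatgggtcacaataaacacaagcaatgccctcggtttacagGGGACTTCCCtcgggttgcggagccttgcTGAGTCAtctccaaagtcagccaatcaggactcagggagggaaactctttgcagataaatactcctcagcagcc

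Other components that feed NF-kB or limit its targets, named here after their values were seen, were higher at 1 h. Tlr2, the receptor for bacterial lipoproteins, read 6.21, 5.50, 5.64 and 4.93 in shock and 6.93, 8.06, 8.71 and 7.59 at 1 h and rose by 2.26 ± 0.36 (4.77-fold, adjusted p = 0.00136). Its adaptor Myd88 rose by 1.01 ± 0.20 and Tifa, an adaptor of the TRAF proteins, by 1.76 ± 0.32. Bcl10, which carries antigen-receptor and other signals to NF-kB, rose by 0.78 ± 0.16, and Map3k8, the kinase that links NF-kB1 to the ERK pathway, by 1.73 ± 0.34. Proteins that act on cytokine mRNA moved as well: Arid5a, which stabilises Il6 mRNA, rose by 2.23 ± 0.32 (5.05 to 6.38 in shock and 7.0 to 8.35 at 1 h, adjusted p = 0.000435), and Zc3h12a, the RNase that degrades it, by 1.24 ± 0.23 (adjusted p = 0.00574). Il6 itself read 7.56, 8.84, 9.29 and 6.24 in shock and 8.58, 8.17, 6.90 and 8.09 at 1 h, ranges that overlap widely, with a difference of -0.05 (adjusted p = 0.989). The adjusted p values of Myd88, Tifa, Bcl10 and Map3k8 lay between 0.00516 and 0.0112. Without 1 h array 2 or 1 h array 3 the call of Myd88 was lost (0.0517 at most), and that of Bcl10 without either of these or shock array 2 or 4 (0.0679). Of the 3 other probe sets of Bcl10, those at 0.95 and 0.72 passed and that at 0.35 did not (adjusted p = 0.536).

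**Figure D2:**
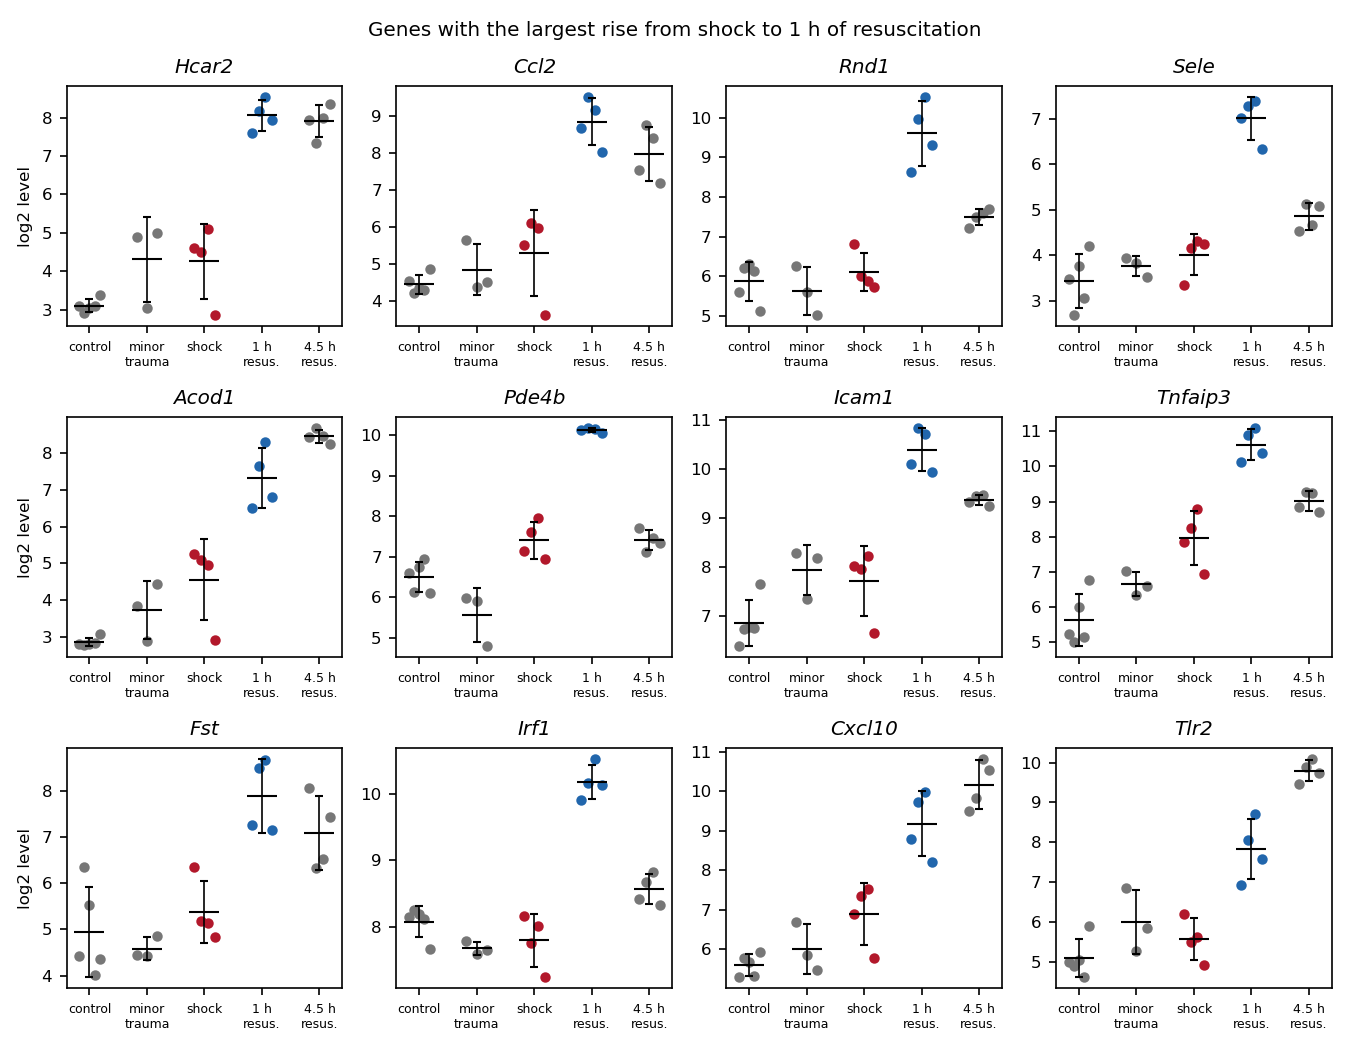
Log2 level on each of the 20 arrays, by group, of the 12 genes that rose most from shock (red) to 1 h of resuscitation (blue), with the other groups in grey; the wide line is the group mean and the bars are ± 1 SD. In all 12 panels the blue points lie above the red ones, and for 6 genes, Hcar2, Ccl2, Acod1, Icam1, Tnfaip3 and Cxcl10, shock array 4 (the rightmost red point) is clearly the lowest of the 4.

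Few chemokine and cytokine genes passed the test although many read higher. Over all genes 0.873% were called higher and 0.374% lower, and for 3.73% every 1 h array lay above every shock array. Such separation held for 1 of 13 CC, 4 of 10 CXC and 4 of 20 inflammatory cytokine and receptor genes. For 1 CXC gene every 1 h array lay below (6.06% of all genes). Of the 13 CC chemokine and receptor genes, Ccl2 alone was called, the median was 0.75, and Ccl7 (1.28), Ccl4 (1.28), Ccl12 (1.22) and Ccl3 (1.54) had adjusted p of 0.087 to 0.31. Of the 10 CXC genes, Cxcl10 alone was called and the median was 0.50. Cxcl10, which draws activated T cells, read 6.89, 7.34, 7.53 and 5.79 in shock and 8.79, 9.73, 9.99 and 8.21 at 1 h and rose by 2.29 ± 0.39 (4.90-fold, adjusted p = 0.00316). Shock array 4 was lowest, and the groups did not overlap. The neutrophil chemokines Cxcl1 and Cxcl2 read 11.94, 11.62, 11.57 and 9.42 and 9.14, 10.47, 10.60 and 7.91 in shock and 12.23, 12.44, 12.28 and 12.23 and 10.64, 11.15, 11.13 and 10.66 at 1 h. Every 1 h array was above every shock array for both, but shock array 4 lay far below its group, and neither passed the test (1.16 ± 0.65, adjusted p = 0.578, and 1.36 ± 0.45, adjusted p = 0.175). Of the 20 inflammatory cytokine and receptor genes, Il1rn alone was called. Il1rn, the natural antagonist of the interleukin-1 receptor, read 6.24, 5.89, 6.08 and 5.63 in shock and 7.02, 8.10, 8.09 and 8.20 at 1 h. It rose by 1.89 ± 0.23 (3.71-fold, adjusted p = 7.23e-05), with 1 h array 1 the lowest of its group. The agonist Il1b had a difference of 0.66 (adjusted p = 0.63), and Tnf of 1.03 ± 0.36 (4.25 to 6.12 in shock and 6.15 to 6.71 at 1 h, adjusted p = 0.229).

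The summed signal of neutrophil markers was higher on every 1 h array than on any shock array, and that of monocyte and Kupffer cell markers lower. Of 14 neutrophil markers tested, 3 were called higher and none lower (0.873% and 0.374% of all genes), the median difference was 1.15, and for 8 every 1 h array lay above every shock array (3.73% of all genes). Ngp, a granule protein, rose by 1.50 ± 0.18 (4.86 to 5.56 in shock and 6.45 to 7.09 at 1 h, adjusted p = 7.45e-05), the collagenase Mmp8 by 1.46 ± 0.23 (adjusted p = 0.00136) and the lectin Clec4e by 1.90 ± 0.40 (adjusted p = 0.0157). The call of Clec4e, which macrophages also express, was lost without shock array 4, 1 h array 2 or 1 h array 3 (0.0834 at most). The calprotectin genes S100a8 and S100a9 read 7.98 to 10.18 and 7.42 to 9.91 in shock and 10.29 to 10.99 and 10.17 to 10.82 at 1 h, with adjusted p of 0.460 and 0.253. The summed signal of the 14 markers, on the linear scale, was 767 to 3368 in shock and 3877 to 7504 at 1 h, and 12276 to 14006 at 4.5 h. It was 288 to 4114 in control and 3492 to 6949 in minor trauma, and both ranges overlap that at 1 h. The brightest members at 1 h were S100a8, S100a9 and Lcn2 (means 10.63, 10.50 and 10.66), none of them called. Lcn2 is also on the acute phase list, so its part in the sum is not particular to neutrophils. No marker lay below the array median on all 4 arrays at 1 h, and 2 did in shock. The part of this shift in the rises of Hcar2, Acod1, Tlr2, Il1rn and other genes that neutrophils express was not tested. None of the 18 monocyte and Kupffer cell markers was called by limma, though 7 had an unadjusted p under 0.05. The median was -0.30, and 2 of the 18 had a positive difference. Their summed signal was 6280 to 6937 in shock and 4486 to 5720 at 1 h. Vsig4, the complement receptor of Kupffer cells, read 9.29 to 9.57 in shock and 8.63 to 9.05 at 1 h (difference -0.59 ± 0.18, adjusted p = 0.130).

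Genes of macrophage metabolism, cAMP breakdown and haem breakdown were among the leading rises. Acod1, the macrophage enzyme that makes itaconate, read 5.24, 5.11, 4.97 and 2.92 in shock and 6.50, 7.64, 8.29 and 6.81 at 1 h and rose by 2.75 ± 0.43 (6.73-fold, adjusted p = 0.00106), with shock array 4 again far below the other shock arrays. Ch25h, which makes 25-hydroxycholesterol, rose by 1.75 ± 0.23 (4.82 to 5.58 in shock and 6.70 to 7.68 at 1 h, adjusted p = 0.000147). Pde4b, a phosphodiesterase that breaks down cAMP, read 7.15, 7.62, 7.94 and 6.94 in shock and 10.13, 10.17, 10.14 and 10.05 at 1 h. Its 4 values at 1 h lay close together and above those of the other 16 arrays. Pde4b rose by 2.71 ± 0.25 (6.54-fold, adjusted p = 3.10e-06), and its 3 other probe sets stood at 1.77, 1.53 and 0.10. It was the only called gene of the 17 on the list of gluconeogenesis and cAMP response (0.873% of all genes were called higher), whose median was 0.09. The gluconeogenic Pck1 stood at a difference of 0.02 and G6pc at -0.87 (adjusted p = 0.99 and 0.26). Hmox1, the enzyme that opens haem to release carbon monoxide, iron and biliverdin, read 8.29, 7.43, 7.90 and 6.56 in shock and 8.32, 10.15, 9.84 and 9.62 at 1 h. The groups met closely, shock array 1 at 8.29 and 1 h array 1 at 8.32, and Hmox1 rose by 1.94 ± 0.38 (3.84-fold, adjusted p = 0.00862). The call, not the sign, was lost without shock array 4 or 1 h array 2 (adjusted p up to 0.0511). It was the only called gene among 20 of the NRF2 and oxidative stress list, median 0.05.

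Interferon regulatory factor 1 gave the smallest p of all genes. Irf1, a transcription factor that NF-kB induces, read 8.16, 7.76, 8.02 and 7.24 in shock and 9.91, 10.16, 10.53 and 10.14 at 1 h. The groups did not overlap. Irf1 rose by 2.39 ± 0.18 (5.24-fold, adjusted p = 1.68e-07), and it had averaged 8.08 ± 0.23 (SD, n = 5) in control and 7.80 ± 0.41 (n = 4) in shock (adjusted p = 0.496). Of the 24 interferon-induced genes tested, Irf1 and Cxcl10 alone were called, both higher (0.873% of all genes), and the median was 0.28. Antiviral members such as Irf7 (0.13), Ifit3 (0.13), Oas1a (0.07) and Bst2 (-0.02) had adjusted p of 0.86 to 0.98. Plscr1, an interferon-inducible scramblase outside the list, rose by 1.86 ± 0.26 (3.64-fold, adjusted p = 0.000320) and by 3.59 on a dimmer probe set (3.72e-07), and Casp4, the cytosolic sensor caspase for lipopolysaccharide, by 1.05 ± 0.23 (adjusted p = 0.0195, a call lost without shock array 2 or 4 or 1 h array 2 or 3 at up to 0.101).

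Most genes of the acute phase, the plasma proteins the liver makes in inflammation, read higher at 1 h, but few passed the test. Of 27 tested, Il1rn and Crp were called higher and none lower (0.873% and 0.374% of all genes), and the median was 0.21. The difference was positive for 25 of the 27. For 6 every 1 h array lay above every shock array (3.73% of all genes), and for none below (6.06%). Crp, C-reactive protein, read 11.98, 11.75, 11.78 and 11.80 in shock and 12.18, 12.32, 12.32 and 12.31 at 1 h, a rise of 0.45 ± 0.09 (1.37-fold, adjusted p = 0.00728) at a high level. Lcn2, lipocalin 2, had a larger difference of 2.29 ± 0.83 (7.04 to 9.16 in shock and 9.35 to 11.23 at 1 h) but did not pass (adjusted p = 0.247), and 1 h array 1 lay well below the other 1 h arrays. Saa3 stood at 1.64 (adjusted p = 0.086), the fibrinogen genes Fga, Fgb and Fgg between 0.01 and 0.09. Upstream of them, the IL-6 and STAT3 list had 1 call among 16, Osmr, the oncostatin M receptor, which rose by 0.94 ± 0.22 (4.97 to 5.57 in shock and 6.08 to 6.39 at 1 h, adjusted p = 0.0371). That call was lost without 1 of any of 7 arrays (up to 0.150), and both other probe sets of Osmr, dimmer ones, stood at 0.30 and 0.13. Socs3, the feedback inhibitor of STAT3, stood at 0.81 (adjusted p = 0.69), and the median was 0.38. For 6 of these 16 genes every 1 h array lay above every shock array, and for 2 below.

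The largest fall was that of Ddit4, followed by Angptl8 and Ass1. Ddit4, Angptl8 and Txnip had been higher in shock than in control (adjusted p 1.85e-07, 0.0226 and 0.00232), a comparison that shares the shock arrays. Ddit4, an inhibitor of the growth kinase mTORC1 that low oxygen and glucocorticoids induce, read 10.06, 11, 10.57 and 10.35 in shock and 8.13, 7.11, 7.75 and 8.48 at 1 h. All 4 shock arrays were above 10 and no 1 h array reached 9. Ddit4 fell by 2.63 ± 0.34 (6.17-fold, adjusted p = 0.000147), to 7.87 ± 0.59 (SD, n = 4), where control averaged 6.83 ± 0.64 (n = 5). Angptl8, an insulin-responsive hepatocyte secreted protein that restrains lipoprotein lipase, read 8.87, 9.74, 7.97 and 8.79 in shock and 6.34, 6.54, 5.58 and 6.51 at 1 h, and fell by 2.60 ± 0.42 (6.05-fold, adjusted p = 0.00178). Txnip, which binds thioredoxin and limits glucose uptake, read 9.48, 10.60, 9.41 and 10.47 in shock and 8.40, 7.47, 7.85 and 8.16 at 1 h, and fell by 2.02 ± 0.35 (4.06-fold, adjusted p = 0.00325). The groups of neither gene overlapped. G0s2, an inhibitor of the triglyceride lipase ATGL, fell by 1.47 ± 0.32 (6.96 to 7.83 in shock and 5.44 to 6.57 at 1 h, adjusted p = 0.0207), and Ppp1r3b, a subunit that directs phosphatase to liver glycogen, by 0.94 ± 0.20 (10.75 to 10.87 in shock and 9.58 to 10.31 at 1 h, adjusted p = 0.0162). G0s2 had averaged 9.40 ± 0.54 (SD, n = 5) in control and 7.40 ± 0.37 (n = 4) in shock (adjusted p = 0.000265). Each of these last calls was lost without shock array 4, 1 h array 2 or 1 h array 3, without shock array 1 for G0s2 and without shock array 2 for Ppp1r3b (adjusted p up to 0.103 and 0.0834).

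Of 26 glycolysis and hypoxia-inducible genes tested, Hmox1 and Adm were called higher and Ddit4 lower (0.873% and 0.374% of all genes). The median was 0.03. Adm, the vasodilator peptide adrenomedullin, rose by 1.07 ± 0.26 (5.54 to 6.37 in shock and 6.63 to 7.45 at 1 h, adjusted p = 0.0495), a call lost without 1 of any of 7 arrays (up to 0.211). Vegfa stood at -0.26, Slc2a1 at -0.39, Pdk1 at -0.01 and Ldha at 0.26 (adjusted p 0.42 to 0.99). Glucocorticoid-inducible genes, 21 tested, had Ddit4 and Dusp1 lower and none higher, with a median of 0.09, and the classical members Fkbp5 (0.35), Tsc22d3 (-0.65) and Per1 (-0.15) had adjusted p of 0.36 to 0.96. Dusp1, the phosphatase that switches off p38 and JNK, read 11.30, 11.99, 11.22 and 11.81 in shock and 10.57, 10.07, 10.22 and 10.63 at 1 h. It fell by 1.21 ± 0.25 (2.31-fold, adjusted p = 0.0115) and control averaged 8.86 ± 0.57 (SD, n = 5). Without shock array 2 or 4 or 1 h array 2 or 3 the adjusted p was up to 0.0618.

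Of genes that hepatocytes express, the urea cycle gene Ass1, on a dim probe set, and the nuclear receptor gene Nr0b2 fell. Ass1, argininosuccinate synthase, was measured by 1 probe set that read 7.50, 7.72, 7.77 and 8.24 in shock and 7.17, 5.05, 4.96 and 4.94 at 1 h. On 3 of the 1 h arrays it stood near 5, while 1 h array 1 stood near the shock arrays. Ass1 fell by 2.28 ± 0.42 (4.85-fold, adjusted p = 0.00582). Ass1 was the only one of the 16 hepatocyte markers called (0.374% of all genes were called lower), and the median was -0.02. Its urea cycle partners Cps1 and Arg1 averaged 12.94 and 12.90 in shock and 12.90 and 12.91 at 1 h. The Ass1 probe set read far below theirs, and whether it reads the main Ass1 transcript was not tested. Nr0b2, the small heterodimer partner that represses bile acid synthesis, read 9.74, 9.78, 9.15 and 9.94 in shock and 8.84, 7.52, 7.65 and 8.20 at 1 h, and fell by 1.60 ± 0.31 (3.03-fold, adjusted p = 0.00883; 0.0520 at most without 1 h array 2 or 3). It was the only called gene of 20 in bile acid synthesis and transport, whose median was -0.07. Cyp7a1, the rate-limiting enzyme of that synthesis, stood at -1.22 (adjusted p = 0.25).

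**Figure D3:**
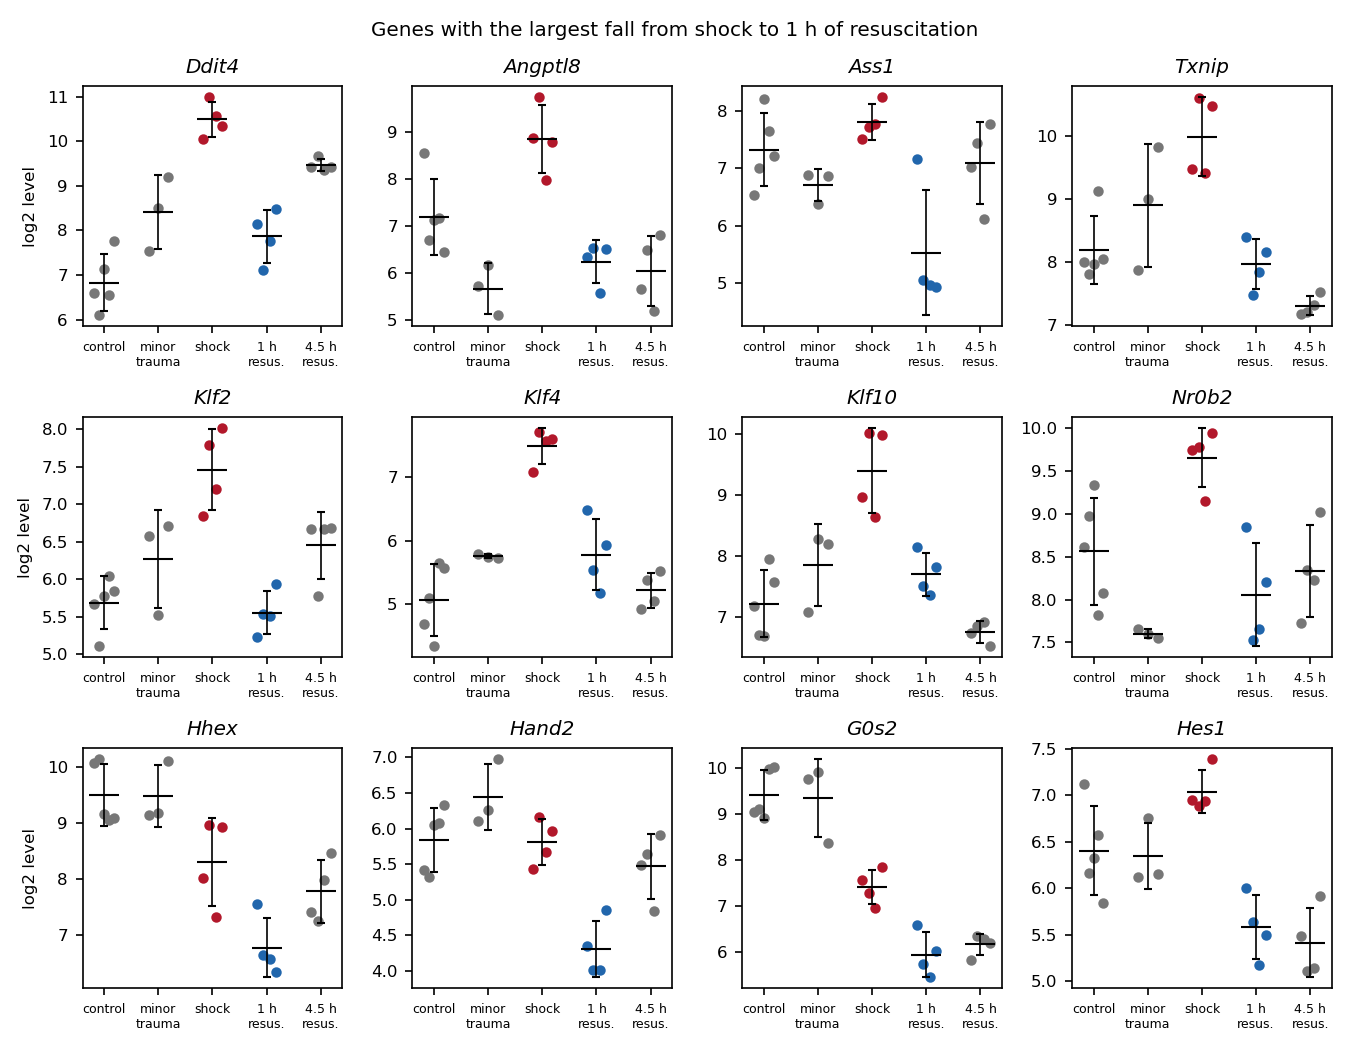
Log2 level on each of the 20 arrays, by group, of the 12 genes that fell most from shock (red) to 1 h of resuscitation (blue), with the other groups in grey; the wide line is the group mean and the bars are ± 1 SD. Red and blue overlap for Hhex alone, and 1 h array 1 of Ass1 (7.17) stands near the shock arrays while the other 3 lie between 4.94 and 5.05.

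Several Kruppel-like factors fell. Of the 21 Kruppel-like and other early transcription factors tested, 4 were called lower (Klf2, Klf4, Klf10 and Hes1) and 1 higher (Sox9), against background shares of 0.374% and 0.873%, and the median was -0.31. Klf2, the factor that laminar flow induces in endothelium, read 6.84, 7.79, 7.20 and 8.02 in shock and 5.23, 5.54, 5.51 and 5.93 at 1 h, and fell by 1.91 ± 0.29 (3.76-fold, adjusted p = 0.000800). Klf4, its relative in endothelium and epithelium, read 7.08, 7.72, 7.58 and 7.61 in shock and 6.47, 5.53, 5.17 and 5.94 at 1 h, and fell by 1.72 ± 0.27 (3.28-fold, adjusted p = 0.00149). For both genes every 1 h array was below every shock array. Klf2 averaged 5.69 ± 0.35 (SD, n = 5) in control, 7.46 ± 0.54 in shock and 5.55 ± 0.29 at 1 h, and Klf4 5.06 ± 0.56, 7.49 ± 0.28 and 5.78 ± 0.56. Klf10, induced by TGF-beta, fell by 1.70 ± 0.32 (8.64 to 10.01 in shock and 7.35 to 8.14 at 1 h, adjusted p = 0.00697), and Hes1, the repressor downstream of Notch, by 1.46 ± 0.24 (6.88 to 7.39 in shock and 5.17 to 6.01 at 1 h, adjusted p = 0.00237). Sox9, a factor of bile duct cells, rose by 1.22 ± 0.24 (4.39 to 5.15 in shock and 5.77 to 6.49 at 1 h, adjusted p = 0.00950); without 1 h array 1 its adjusted p was 0.226, and without shock array 4 the call was lost too. A second probe set of Sox9 stood at 1.02 (adjusted p = 0.316).

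Regulators of vessel cells moved in both directions, and no endothelial marker passed the test. Of the 19 vasoactive and endothelial stress genes tested, Adamts4, Adm and Adamts1 were called higher and Rgs2 lower (0.873% and 0.374% of all genes). The median was 0.19. Adamts4, a protease of matrix proteoglycans, read 4.89, 3.99, 4.24 and 4.33 in shock and 6.01, 6.03, 6.52 and 6.08 at 1 h, and rose by 1.80 ± 0.21 (3.48-fold, adjusted p = 6.08e-05). Adamts1, a related protease, rose by 0.57 ± 0.14 (adjusted p = 0.0405), a call lost without any 1 of the 8 arrays (up to 0.179). Rgs2, which quiets receptors that contract vessels, fell by 1.29 ± 0.26 (7.01 to 7.55 in shock and 5.35 to 6.59 at 1 h, adjusted p = 0.0122, and 0.0665 at most without shock array 2 or 1 h array 2). Of genes known from endothelium but in neither list, named after their values were seen, Sox17, a factor of arterial identity, fell by 1.19 ± 0.27 and Clec14a, a membrane lectin of vessels, by 0.85 ± 0.21, while Cd93, a membrane receptor, rose by 0.52 ± 0.11 (adjusted p = 0.0242). Their calls, with adjusted p of 0.0282 and 0.0456, ended without 1 of at least 6 arrays (up to 0.137 and 0.197). The other probe set of Sox17 stood at -0.02 (adjusted p = 0.992) and that of Clec14a at -0.80 (0.107), and with the mean of a gene's probe sets Sox17 stood at -0.61 and was not called (0.159). Of the 16 sinusoidal and other endothelial markers none was called by limma and none had an unadjusted p under 0.05, the median was -0.11, and their summed signal was 3013 to 3533 in shock and 2887 to 3349 at 1 h. Among 16 stellate cell and fibroblast markers Hand2, a transcription factor of stellate cells, alone was called. It read 5.43, 6.16, 5.68 and 5.97 in shock and 4.35, 4.01, 4.01 and 4.85 at 1 h and fell by 1.50 ± 0.27 (2.83-fold, adjusted p = 0.00508), and the summed signal of that list was 4360 to 4731 in shock and 3668 to 4236 at 1 h.

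Growth factor genes moved in both directions. Fst, follistatin, which binds activin, read 6.34, 5.18, 5.15 and 4.84 in shock and 7.26, 8.49, 8.67 and 7.16 at 1 h, and rose by 2.52 ± 0.48 (5.72-fold, adjusted p = 0.00697). Of the 23 growth factor and regeneration genes tested, Fst and Id3 were called higher and Bmp2 lower (0.873% and 0.374% of all genes). The median was -0.14. Id3 is an inhibitor of basic helix-loop-helix factors, and Bmp2 sets hepcidin from the endothelium. Id3 rose by 0.97 ± 0.23 (adjusted p = 0.0369) and Bmp2 fell by 1.15 ± 0.25 (7.98 to 8.57 in shock and 6.97 to 7.38 at 1 h, adjusted p = 0.0188). The call of Id3 ended without 1 of any of 7 arrays (up to 0.154) and that of Bmp2 without shock array 2 or 4 or 1 h array 2 or 3 (up to 0.0898). Beside Rnd1, its relative Rnd3 rose by 1.50 ± 0.25, the small G protein Gem by 1.36 ± 0.26, the scaffold Akap12 by 1.50 ± 0.26 and the tubulin Tubb6 by 1.61 ± 0.29, all named after their values were seen (adjusted p 0.00237 to 0.00728). A second probe set of Tubb6, near the array median, had a difference of -0.23. Gcc1, a protein of the Golgi, rose by 1.55 ± 0.17 (5.49 to 5.88 in shock and 6.75 to 7.58 at 1 h, adjusted p = 2.04e-05), one of the smallest p values of the comparison. In the other direction, Cdk1, the kinase of mitosis, fell by 1.17 ± 0.21 (adjusted p = 0.00441), cyclin F (Ccnf) by 1.42 ± 0.30 (adjusted p = 0.0166, up to 0.0858 without shock array 2 or 4 or 1 h array 2 or 3, and -0.79 on a dimmer probe set), and Hhex, a homeobox factor of hepatocytes and endothelium, by 1.54 ± 0.37 with overlapping groups (adjusted p = 0.0439, up to 0.183 without 1 of 6 arrays). Wdr20, a partner of deubiquitinating enzymes, fell by 0.74 ± 0.12 (adjusted p = 0.00194) and Znrf3, which removes Wnt receptors, by 0.86 ± 0.14 (adjusted p = 0.00237), though dimmer probe sets stood at -0.41 for Wdr20 and 0.36 for Znrf3 (adjusted p = 0.354 and 0.815).

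Immediate early genes, switched on within minutes by many stimuli, moved in both directions. Of 30 tested, 5 were called higher (Ier3, Ier5, Egr2, Mafk and Rhob) and 3 lower (Klf2, Klf4 and Klf10). The shares of all genes were 0.873% and 0.374%, and the median of the list was 0.25. The 3 lower genes are the same as those counted above among the Kruppel-like factors. Ier3, an NF-kB target that protects from death signals, read 8.25, 8.83, 8.96 and 6.81 in shock and 9.44, 9.97, 10.03 and 9.95 at 1 h and rose by 1.64 ± 0.32 (3.11-fold, adjusted p = 0.00847). Ier5 rose by 1.38 ± 0.18 (adjusted p = 0.000107; 0.80 on a probe set below the array median, 0.644) and the zinc finger factor Egr2 by 1.21 ± 0.23 (adjusted p = 0.00797). Mafk rose by 0.92 ± 0.22 and Rhob by 0.90 ± 0.21, and both calls, though not the signs, were lost without any 1 of the 8 arrays (adjusted p up to 0.127 and 0.126). Of the AP-1 and Egr genes with the largest rises from control to shock, none passed the test over the next hour on its brightest probe set, and Jun fell on another. Fos averaged 5.79 ± 0.43 (SD, n = 5) in control, 10.13 ± 0.45 in shock and 9.61 ± 0.49 at 1 h, and Atf3 4.45 ± 0.40, 9.75 ± 0.51 and 9.54 ± 0.27. Egr1 averaged 11.68 ± 0.14 in shock and 11.28 ± 0.62 at 1 h. Jun had a wider spread at 1 h, with 11.03, 8.78, 10.21 and 10.91 against 11.11, 12.16, 11.03 and 11.96 in shock (difference -1.33 ± 0.43, adjusted p = 0.167). On its second probe set Jun fell by 1.43 ± 0.32 (limma adjusted p over probe sets 0.0289). These 4 were named for a rise from control to shock among the 10 largest, and both comparisons share the shock arrays. The adjusted p of Fos, Atf3 and Egr1 from shock to 1 h were 0.532, 0.868 and 0.856. Of the 14 MAP kinase phosphatase and feedback genes Dusp5, a nuclear ERK phosphatase, was higher by 1.28 ± 0.31 (adjusted p = 0.0409, lost without 1 of any of 7 arrays at up to 0.170) and Dusp1 lower, with a median of 0.07.

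**Figure D4:**
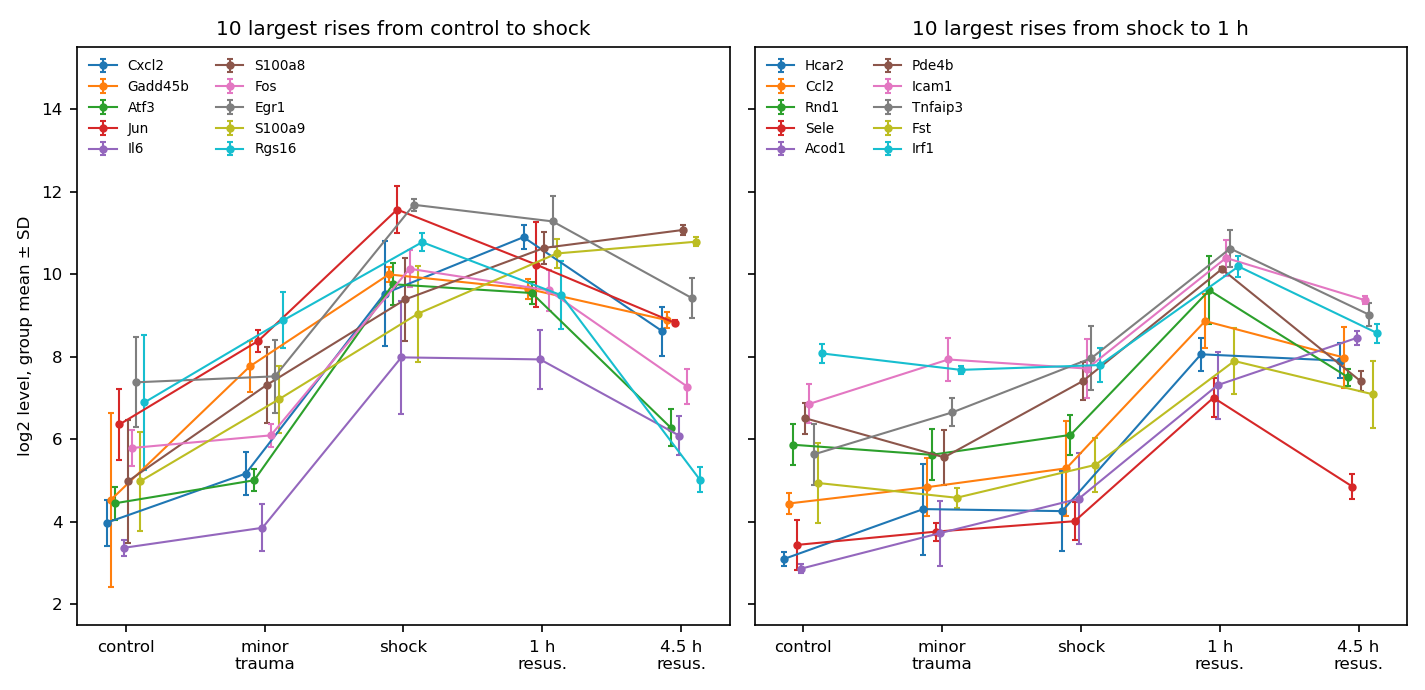
Group means of the log2 level over the 5 groups, with bars of ± 1 SD, for the 10 genes that rose most from control to shock (left) and the 10 that rose most from shock to 1 h of resuscitation (right). On the left the means at shock and at 1 h differ by at most 1.46 (S100a9), and on the right the steps from shock to 1 h run from 2.39 (Irf1) to 3.80 (Hcar2); the genes of each panel were chosen on the step they show.

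The genes that rose differed in how they stood at 4.5 h, a comparison that shares the 1 h arrays and called 33.1% of all genes. Sele averaged 7.01 ± 0.47 (SD, n = 4) at 1 h and 4.85 ± 0.30 at 4.5 h (adjusted p = 1.93e-05), Pde4b 10.12 ± 0.05 and 7.41 ± 0.25 (adjusted p = 5.00e-08) and Rnd1 9.61 ± 0.82 and 7.50 ± 0.21 (adjusted p = 8.33e-05). All 3 were lower at 4.5 h. Irf1 went from 10.18 ± 0.25 to 8.57 ± 0.23 (adjusted p = 8.02e-07) and Tnfaip3 from 10.62 ± 0.45 to 9.02 ± 0.29 (adjusted p = 0.00174). Other genes were higher still at 4.5 h: Tlr2 averaged 7.82 ± 0.75 and then 9.79 ± 0.27 (adjusted p = 0.000236), Il1rn 7.85 ± 0.56 and 9.35 ± 0.18 (adjusted p = 4.09e-05), Tifa 9.02 ± 0.85 and 11.67 ± 0.16 (adjusted p = 2.59e-06) and Selp 7.24 ± 0.74 and 8.78 ± 0.27 (adjusted p = 5.16e-05). Hcar2 averaged 8.06 ± 0.40 at 1 h and 7.90 ± 0.42 at 4.5 h, and Hmox1 9.49 ± 0.80 and 9.53 ± 0.30, with adjusted p of 0.812 and 0.946. Of the genes that fell, Ddit4 was higher again at 4.5 h (9.47 ± 0.14 against 7.87 ± 0.59, adjusted p = 0.00104), as were Ass1 (7.09 ± 0.72 against 5.53 ± 1.09, adjusted p = 0.00739) and Hand2 (5.47 ± 0.46 against 4.31 ± 0.40, adjusted p = 0.00246).

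Several large liver programmes gave at most 2 calls each over the hour, where 0.873% of all genes were called higher and 0.374% lower. Among 26 genes of the unfolded protein and integrated stress response none was called by limma, 2 had an unadjusted p under 0.05, and the median was 0.12. Xbp1, the central factor of that response, read 11.11 to 11.74 in shock and 11.57 to 12.23 at 1 h (difference 0.57 ± 0.16, adjusted p = 0.114), and passed without 1 h array 1, its lowest at 1 h (adjusted p = 0.0211). None was called among 23 cytochrome P450 and conjugation genes (1 at an unadjusted p under 0.05, median -0.01), 20 of PPARalpha and fatty acid oxidation (1, median 0.09), 18 of the circadian clock (1, median -0.16) and 17 of cholesterol synthesis and uptake (0, median -0.10). The same held for 22 ribosome biogenesis genes (2, median 0.08), 12 of polyamine and translation start (3, median 0.04) and 7 metallothionein and zinc genes (0, median 0.12). The heat shock list had 1 call among 19, the co-chaperone Bag3, which rose by 0.90 ± 0.21 (adjusted p = 0.0348, up to 0.114 without 1 of any of 7 arrays), while 8 of the 19 had every 1 h array above every shock array, against 3.73% of all genes, and Hspa1a stood at 1.23 (adjusted p = 0.18). Of 17 p53 target genes the death receptor Fas was called, higher by 1.15 ± 0.24 (adjusted p = 0.0157, up to 0.0808 without shock array 1 or 4 or 1 h array 2 or 3). Of 22 coagulation genes 2 were called, the urokinase receptor Plaur, which rose by 1.17 ± 0.20 (adjusted p = 0.00325), and thrombospondin 1 (Thbs1), by 1.14 ± 0.23 (adjusted p = 0.0104, up to 0.0564 without 1 h array 3 or 4; a dimmer probe set rose by 2.45, 3.53e-06). G0s2 was the only call among 20 genes of lipogenesis and lipid droplets, median 0.11.

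**Figure D5:**
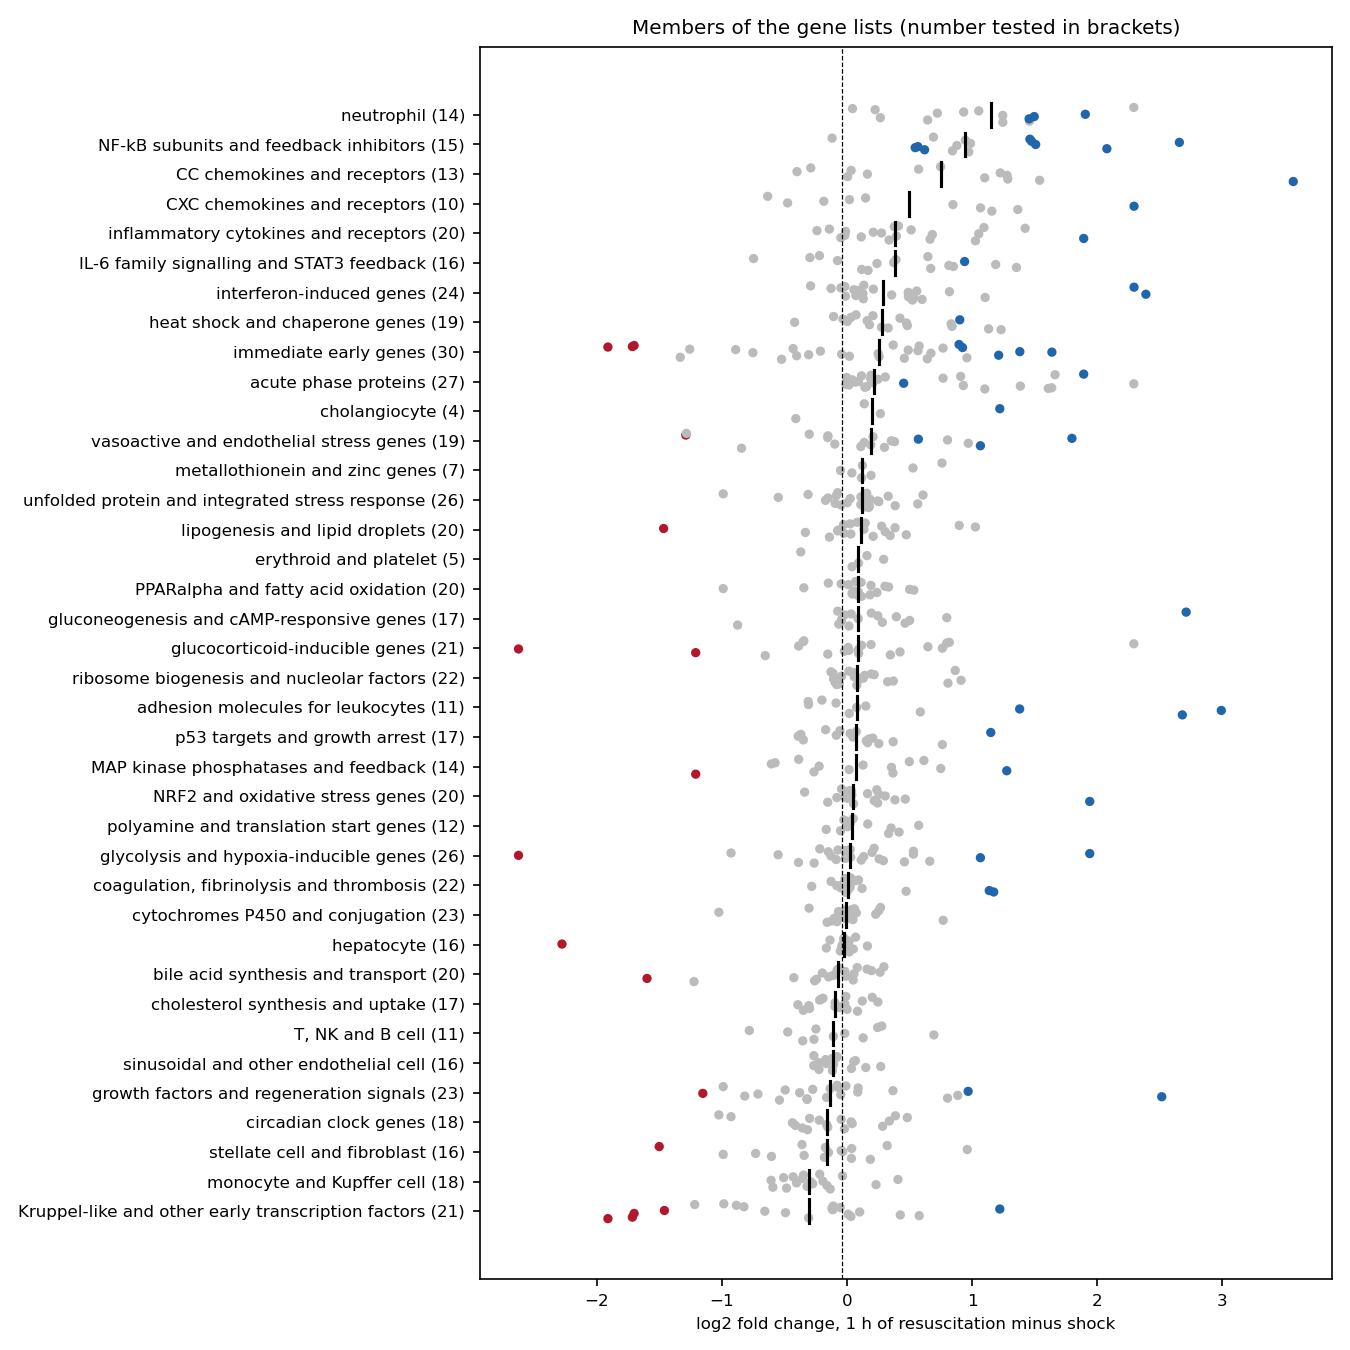
Log2 fold change (1 h of resuscitation minus shock) of every tested member of the 38 gene and marker lists, sorted by the list's median (black bar); blue points were called higher, red ones lower and grey ones were not called, and the dashed line is the median of all genes (-0.04). Neutrophil markers (1.15) and NF-kB genes (0.95) have the highest medians, and the Kruppel-like and other early transcription factors (-0.31) and monocyte and Kupffer cell markers (-0.30) the lowest.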

How the data were processed

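Whole liver RNA was measured on 20 arrays, with 1 value per probe set. Per the submitters' processing notes the authors computed the deposited intensity values with MAS5 (version not given in the sources used here). Values were on a linear scale and not scaled between arrays, so log2(value + 6) was quantile normalized over all arrays. Probe sets naming 1 gene (34945 of 45101) and above their own array's median on at least 3 arrays were kept, and the brightest stood for its gene, which left 12832 of 18193 genes. A gene absent in shock could pass through its level in another group. One linear model of 5 group means over 20 arrays was fitted with limma 3.58.1 in R 4.3.3, with an intensity trend. Pooling the groups assumes that they share 1 spread. Nothing in the labels says how arrays were replicated beyond separate samples, so p values measure the spread between these samples.

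Genes to name were the 15 largest changes and the 10 smallest p in each direction among called genes, up to 4 called members of each list or, with none, the 2 with the smallest p. The 10 largest rises from control to shock, 8 further called list members 24 genes and Cd93 were added after values were seen. Values of a second probe set of a gene have p values adjusted over all kept probe sets. Genes with clone or locus names were left out, and some named genes are given only within counts. The genes and lists were chosen with earlier results of these data known. Fold is at least N-fold where all arrays of the dimmer group lay at or below the array median, and then uses that median. Lists of genes are described by counts and medians, without a set test. Each count is to be read beside the shares of all genes called, 0.873% higher and 0.374% lower. Some genes are on several lists. Promoter windows came from RefSeq, and figures were drawn with python 3.11.15, pandas 2.3.3, numpy 2.4.6 and matplotlib 3.10.9. The number of arrays limits the precision. The fit was checked on simulated data with 200 changed genes and independent normal noise of 1 spread per gene. It recovered 81% of changes of 1 on the log2 scale and 97% of changes of 2, and 6.81% of calls were false. Such data hold no outlying arrays or sets of arrays, so the check does not cover them.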

Additional observations from a re-analysis of the deposited data

Results flagged for a closer look

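In 20 of the 240 groups of 4 arrays checked, over the named genes, 1 array stood apart from the other 3 by more than Dixon's critical value at the 95% level on a gap as a share of the group's range. Chance gives about 1 in 20 groups. The values follow on the log2 scale. On 1 h array 1, which held 8 of the 20, Ass1 read 7.17 (others 4.94 to 5.05) and Stard8 5.48, both above the other 1 h arrays. On the same array Il1rn read 7.02, Ier3 9.44, Crp 12.18, Xbp1 11.57, Rrp9 4.26 and Lcn2 9.35 (others 11.01 to 11.23), all below the other 1 h arrays.

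Shock array 4 held 5: it was the lowest for Acod1 at 2.92 (others 4.97 to 5.24), Icam1 at 6.65, Clec4e at 4.29 and Cxcl1 at 9.42 (others 11.57 to 11.94), and the highest for Hes1 at 7.39. Shock array 1 was lowest for Sele at 3.34 and for Slc40a1, the iron exporter, at 9.65. On 1 h array 3 Adamts4 read 6.52, Ngp 7.09 and Ch25h 7.68, each the highest of its group. Mafk read 7.25 on 1 h array 2 and Rhob 10.77 on 1 h array 4, again the highest. The unspiked arrays of the 8 were shock arrays 1 and 4 and 1 h arrays 1 and 4, which include the arrays with the most flags in each group. What set these arrays apart was not tested.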

How the results depend on the processing

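No named gene changed sign with a call under any of the 23 alternatives, and of 82 named genes called, 50 kept the call when each of the 8 arrays was left out in turn. Within the unspiked arrays (2 against 2) all but Hcar2 and Pde4b of these 82 lost it. The number of genes called, with those higher and lower, was 160 (112 and 48). It was 76 (58 and 18) with values as deposited, 290 (175 and 115) in a fit of the 8 arrays alone, 269 (174 and 95) without control 5 and minor trauma 3, 412 (227 and 185) with array weights, 55 (45 and 10) within the spiked arrays and 2 (2 and 0) within the unspiked arrays. Median centring gave 31 lower. The 101 genes of at least 2-fold became 55 and 2 within the spiked and unspiked arrays. The 45 called list members became 68 with the 8 arrays alone, 72 with weights, and 24 and 1 within the spiked and unspiked arrays. Leaving out 1 array gave 82 to 182 genes called, 63 to 122 higher, 18 to 60 lower, 66 to 128 of at least 2-fold and 28 to 49 list members. Same-numbered shock and 1 h arrays did not deviate together (r from -0.06 to 0.08 over genes). With so few arrays this cannot tell whether the numbers mark pairs. With the replicate number as a block over the 8 arrays, 199 genes were called (134 higher, 65 lower), 116 of the 160 among them. The cause of these shifts was not tested, beyond the fewer arrays of the subsets. Genes near the array median have little signal over background, and their folds are the least certain.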
